A study of Homo sapiens with 6 samples.

Results

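The genes described here encode heat shock proteins, the DNAJ cochaperones that work with them, and the protein disulfide isomerases and lectin chaperones of the endoplasmic reticulum (ER). They were taken from the array by gene symbol: HSPA, HSPB, HSPD, HSPE, HSPH and HSP90 names, the DNAJA, DNAJB and DNAJC series, the PDIA series, and P4HB, CALR and CANX. After 3 pseudogenes (HSPA7, DNAJB3 and HSP90AB4P) were left out, 76 genes, each with 1 probe set, remained of 24726 probe sets. HSPBP1 and HSPBAP1 carry a matching name but are proteins that bind heat shock proteins, so they were kept as a group of their own. HSPE1, PDIA3 and DNAJC9 were not analysed here.

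The tumours were xenografts of Huh7, a human line from a hepatocellular carcinoma, injected subcutaneously into nude mice, and each was measured on 1 Affymetrix array. In the 3 IR-A tumours the cells stably carried the plasmid pRcCMVi.hIR-A(GFP), which encodes isoform A of the human insulin receptor, and in the 3 control tumours they carried the empty vector. Both groups had been selected with G418 and for green fluorescent protein by cytometry, so selection and marker are shared, and the labels do not say whether either line was 1 clone or which mouse bore which tumour. The p-values below therefore measure only the spread between these tumours. Nude mice lack T cells but keep macrophages, vessels and stroma, and the RNA came from whole tumours, so fewer cells of a type and less RNA per cell cannot be told apart. The probe sets are named for human genes while host cells are mouse, and how far mouse RNA adds to the signals was not tested.

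Chaperones bind proteins that are not yet folded. HSP70 proteins hold and release clients in an ATP cycle that DNAJ proteins start, and HSP90 takes over kinases and receptors for their last folding steps, the insulin receptor's relatives among its clients. In the ER, HSPA5 (BiP), HSP90B1 (GRP94), the lectins calnexin and calreticulin and the disulfide isomerases fold secreted proteins and receptors, a heavy load in hepatocyte-like cells. Heat shock factor 1 drives the cytosolic genes through heat shock elements, and ATF6 and XBP1 drive the ER genes through the ER stress element.

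The promoters of some of these genes hold these elements. RefSeq windows of assembly GRCh38.p14, from 250 bases before to 50 bases after each annotated start, were present for 70 of the 76 genes, 96 windows in all. The strict heat shock element TTCNNGAANNTTC, searched on both strands, was in 7 genes (DNAJA1, DNAJB6, HSP90AA1, HSP90AB1, HSPA6, HSPA8 and HSPD1). It was in 7.29% of their windows against 0.49% of all 35116 windows. The ER stress element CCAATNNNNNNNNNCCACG, also searched on both strands, was in 5 genes (CALR, CANX, HSP90B1, HSPA5 and PDIA6). It was in 7.29% of the windows of these families against 0.0769% of all windows. Several overlapping windows of CANX hold the same site, and each of them was counted. No window of the table held both, and no match says only that these letters are not in the window. The stretches below were picked by hand from genes whose values are given in full below, with the capitals marking the motif. DNAJA1, HSPA6 and HSP90B1 also have a match and full values, and their stretches are not shown. HSP90AB1 has 2 copies, both shown. HSPD1 has 2 that overlap, and they are capitalised as 1 run. HSPA8 also has 2, of which the one nearer the start is shown. The motif of CALR lies on the opposite strand and reads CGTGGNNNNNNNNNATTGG as printed. Each is written 5′ to 3′ on the gene's strand.
HSP90AA1, heat shock element, chr14:102087095-102087157, minus strand: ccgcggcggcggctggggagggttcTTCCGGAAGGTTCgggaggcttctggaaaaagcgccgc
HSP90AB1, heat shock element, chr6:44247753-44247868, plus strand: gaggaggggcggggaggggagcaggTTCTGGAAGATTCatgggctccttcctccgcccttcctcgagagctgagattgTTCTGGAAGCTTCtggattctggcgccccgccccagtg
HSPD1, heat shock element, chr2:197500043-197500090, minus strand: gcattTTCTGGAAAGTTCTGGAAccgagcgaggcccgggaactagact
HSPA8, heat shock element, chr11:123062154-123062216, minus strand: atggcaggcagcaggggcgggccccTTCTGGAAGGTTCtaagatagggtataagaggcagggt
CANX, ER stress element, chr5:179698753-179698821, plus strand: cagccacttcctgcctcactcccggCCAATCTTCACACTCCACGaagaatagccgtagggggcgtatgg
HSPA5, ER stress element, chr9:125241366-125241434, minus strand: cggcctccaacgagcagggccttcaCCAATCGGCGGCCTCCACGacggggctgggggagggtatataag
CALR, ER stress element, chr19:12938359-12938427, plus strand: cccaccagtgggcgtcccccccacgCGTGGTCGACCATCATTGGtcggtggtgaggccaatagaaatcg

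Values are log2 signals from RMA, so 1 unit is a factor of 2 in signal, and signals of different genes are not set against each other. Differences are the mean of the IR-A tumours minus that of the controls, with the moderated standard error (SE) of limma fitted to all probe sets and p-values adjusted over all of them (Benjamini-Hochberg, threshold 0.05). No probe set of the array passed, which is 0% of 24726, and 3 against 3 tumours cannot reach an exact permutation p below 0.1. INSR, the gene added in the IR-A tumours, had signals of 8.04, 7.61 and 8.47 in controls and 10.65, 11.31 and 11.01 in IR-A tumours, a difference of 2.95 (SE 0.26, adjusted p = 0.0769). Its probe set does not separate isoforms. Hepatocyte and Huh7 markers were bright in every tumour (7 of 8 measured, mean signal 11.75 to 12.18), with 6 of 7 differences above 0. Of 6 fibroblast markers 5 had differences above 0 (tumour means 4.28 to 4.52 against 4.78 to 4.97). Of 5 macrophage and leukocyte markers 3 lay above 0 and 2 below, with a median of 0.02. TYROBP (1.78) and CD68 (0.62) were apart between the groups, and CSF1R (0.02), ADGRE1 (-0.0095) and PTPRC (-0.07) were near 0. DCN and PTPRC lay near the bottom of the signal range. Of 5 endothelial markers 2 lay above 0 and 3 below, with a median of -0.03, and only PECAM1 (0.51) was apart. Control tumour 2 correlated slightly better with the IR-A arrays (mean r 0.987) than with its own group (0.982), so results are also given without it. Leaving out a control chosen for its likeness to the IR-A arrays makes a pass likelier, so such passes are descriptions only.

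No chaperone or isomerase gene passed the threshold, and most differed little between the groups. The lowest adjusted p of the 76 was 0.131 (PDIA5, limma). Of the 76, 29 had a difference above 0 and 47 below, with a median of -0.09 against -0.03 for all probe sets, and 61.8% lay below 0 against 56% of all. Differences of 52 genes (68.4%) were within 0.25 of 0, against 72.2% of all probe sets, and 1 gene reached a factor of 2 (1.32% against 1.91%). An unadjusted p under 0.05 was found for 7 genes (9.21%), 1 higher and 6 lower in IR-A tumours. Across the array that share was 14.1%, with 7.1% higher and 7.03% lower. The groups did not overlap, meaning every tumour of one lay above every tumour of the other, for 1 gene higher and 11 lower (15.8%). Across the array that was so for 17.2% of probe sets, 7.73% higher and 9.45% lower. Both shares over either direction were below those of the array. Among the 59 genes brighter than the median probe set, 11.9% had an unadjusted p under 0.05, against 23.6% of all probe sets above that median. The 2 sets were not matched for brightness.

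**Figure D1:**
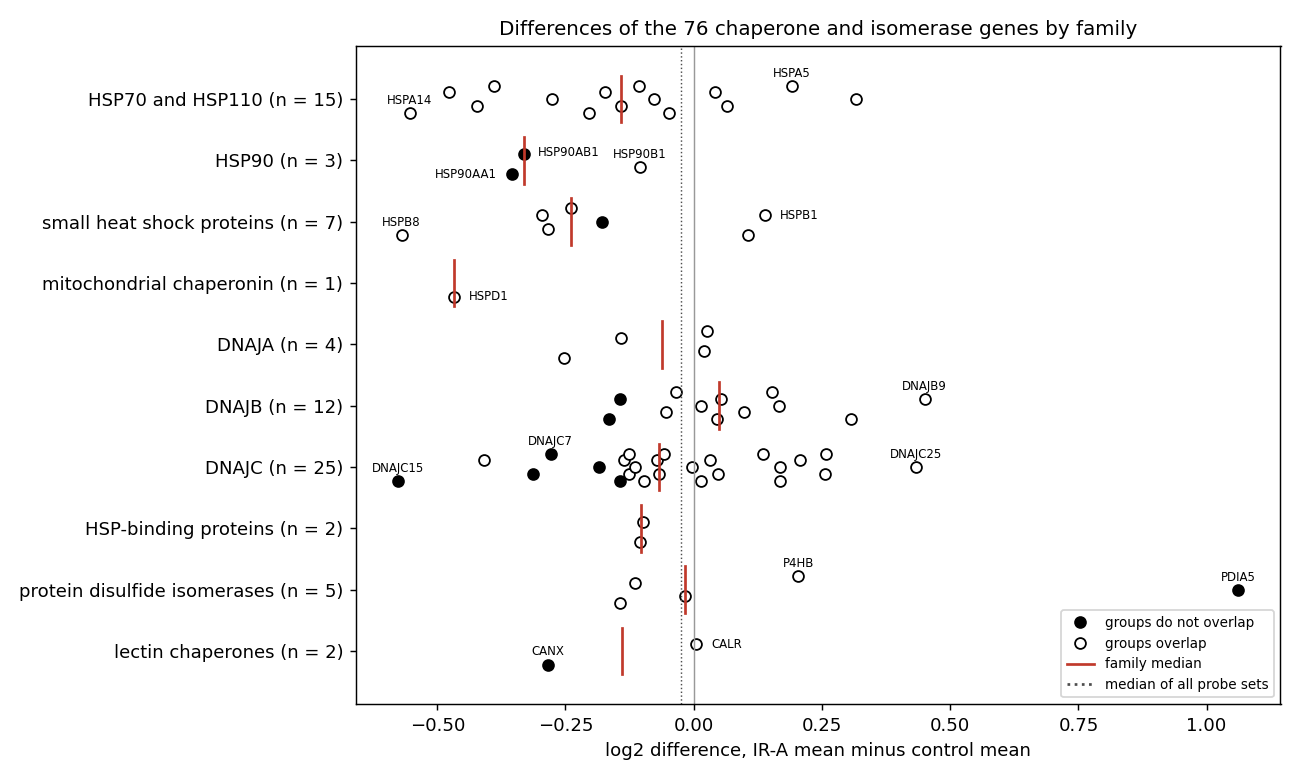
Each point is 1 of the 76 genes, placed by its log2 difference (IR-A mean minus control mean, 3 tumours each) in the row of its family; filled points have groups that do not overlap, red lines are family medians and the dotted line is the median of all probe sets. All 3 HSP90 genes lie below 0, DNAJB genes straddle it around a median of 0.05, and PDIA5 stands alone at 1.06.

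The HSP70 and HSP110 family lay below 0 for 11 of its 15 genes, with a median of -0.14, and no gene of it had an unadjusted p under 0.05. The median was -0.0773 without IR-A tumour 2 and -0.27 without IR-A tumour 3. HSPA8, the constitutive cytosolic HSP70 that carries 2 heat shock elements, had signals of 12.21, 12.35 and 12.05 in controls and 12.11, 11.75 and 12.14 in IR-A tumours. The difference was -0.20 (SE 0.14), and only IR-A tumour 2 lay outside the range of the controls. The stress-inducible pair HSPA1A and HSPA1B encode almost the same protein from almost the same sequence, so signal may be shared between their probe sets. HSPA1B read 9.27, 9.74 and 9.26 in controls and 8.93, 8.53 and 9.54 in IR-A tumours. IR-A tumour 3 lay inside the control range and the other two below it, a spread of 1.01 within the IR-A group against a difference of -0.42 (SE 0.27, adjusted p = 0.561 by limma). That difference was -0.19 without IR-A tumour 2 and -0.69 without IR-A tumour 3. HSPA1A read 9.60, 10.03 and 9.48 in controls and 9.50, 9.27 and 10.03 in IR-A tumours, a difference of -0.11 (SE 0.23). Control tumour 2 and IR-A tumour 3, the highest of the 6, were equal to the printed decimals.

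HSPH1, the HSP110 that exchanges nucleotide on HSP70, had the same order of IR-A tumours as that pair, with tumour 3 highest and tumour 2 lowest. Its signals were 9.41, 9.40 and 8.92 in controls and 8.81, 8.41 and 9.34 in IR-A tumours, so the groups overlapped through control tumour 3 and IR-A tumour 3. The difference of -0.39 (SE 0.26) became -0.17 without IR-A tumour 2 and -0.63 without IR-A tumour 3. Its relative HSPA4L had the widest control range of the 76 genes, 7.55, 5.92 and 6.44, against 6.62, 6.21 and 6.84 in IR-A tumours. The difference of -0.08 (SE 0.41) turned to 0.38 without control tumour 1. HSPA14, the ribosome-associated HSP70, read 7.82, 7.64 and 6.78 in controls and 7.06, 6.42 and 7.11 in IR-A tumours, a difference of -0.55 (SE 0.32). It was the lowest difference of the family, and control tumour 3 lay below IR-A tumours 1 and 3. It became -0.33 without IR-A tumour 2, -0.35 without control tumour 1 and -0.87 without control tumour 3. HSPA6, a strictly stress-induced HSP70 whose probe set may share signal with its pseudogene HSPA7, read 3.74, 3.19 and 4.03 in controls and 3.38, 3.15 and 2.99 in IR-A tumours. These are dim values, and the groups overlapped at control tumour 2. HSPA1L, mainly known from testis, differed by -0.28 (SE 0.12, adjusted p = 0.394 by limma) and was also dim, at 4.43 in controls.

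The organelle HSP70 genes stood nearer to 0 or above it. HSPA5 (BiP), the ER HSP70 with an ER stress element, read 11.20, 11.08 and 11.15 in controls and 11.32, 11.17 and 11.51 in IR-A tumours. IR-A tumours 1 and 3 lay above all controls and IR-A tumour 2 within them, for a difference of 0.19 (SE 0.11, 95% interval -0.08 to 0.46), or 0.10 without IR-A tumour 3. HSPA9 (mortalin), the mitochondrial HSP70, read 11.15, 11.40 and 11.40 in controls and 11.23, 11.12 and 11.46 in IR-A tumours, a difference of -0.05 (SE 0.13). The highest difference of the family, named after the values were seen, was that of HSPA2 at 0.32 (SE 0.16, adjusted p = 0.444 by limma).

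All 3 HSP90 genes lay below 0, and their median of -0.33 was the lowest of any family with more than 1 gene. HSP90AB1, the constitutive cytosolic form with 2 heat shock elements, read 10.82, 10.69 and 10.82 in controls and 10.44, 10.37 and 10.52 in IR-A tumours. All IR-A tumours were below all controls, by -0.33 (SE 0.09, 95% interval -0.55 to -0.11, adjusted p = 0.212 by limma), and the tumours within each group lay within 0.15 of each other. HSP90AA1, the inducible cytosolic form, read 5.69, 5.52 and 5.37 in controls and 5.12, 5.03 and 5.36 in IR-A tumours. Its groups were apart only by the last decimal, between control tumour 3 and IR-A tumour 3, and the difference was -0.35 (SE 0.13, adjusted p = 0.309). HSP90B1 (GRP94), the ER form, read 12.46, 12.28 and 12.32 in controls and 12.28, 12.15 and 12.31 in IR-A tumours, a difference of -0.10 (SE 0.10) with overlapping groups. Differences of the cytosolic pair stayed between -0.27 and -0.45 when each tumour was left out in turn, and neither passed the threshold.

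The small heat shock proteins, which hold unfolded clients without ATP, had 5 of 7 genes below 0 and a median of -0.24. HSPB1 (HSP27), the bright gene of the family, read 11.19, 11.13 and 10.45 in controls and 11.27, 10.80 and 11.13 in IR-A tumours. Control tumour 3 was the lowest of the 6, and the difference of 0.14 (SE 0.23) turned to -0.10 without it. The others had mean signals below the array's median of 4.71. Of these, HSPB8, which works with BAG3 in selective autophagy, read 4.34, 4.29 and 5.17 in controls and 4.32, 3.73 and 4.03 in IR-A tumours. The difference of -0.57 (SE 0.27, adjusted p = 0.417 by limma) became -0.29 without control tumour 3, the highest of the 6. HSPB2, a muscle form, differed by -0.24 (SE 0.13), with overlapping groups near 3. HSPB3, another muscle form, was the only one with groups apart, at 3.08 to 3.32 against 2.94 to 3.06. The 7 skeletal muscle markers were dim too, with tumour means of 3.79 to 4.20 that overlapped between the groups and 6 of 7 differences below 0, and their part in these values was not tested.

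HSPD1 (HSP60) forms the mitochondrial chaperonin and carries the pair of overlapping heat shock elements shown above. It read 8.02, 7.79 and 7.83 in controls and 7.19, 7.26 and 7.79 in IR-A tumours. IR-A tumours 1 and 2 lay well below the controls, while IR-A tumour 3 equalled control tumour 2 to the printed decimals. The difference was -0.47 (SE 0.18, 95% interval -0.89 to -0.04, adjusted p = 0.318 by limma), and it was -0.66 without IR-A tumour 3.

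The DNAJ cochaperones, 41 of the 76 genes, had medians near 0, -0.06 for the 4 DNAJA genes, 0.05 for the 12 DNAJB genes (8 above 0) and -0.07 for the 25 DNAJC genes (15 below 0). DNAJA1, the main cytosolic partner of HSPA8 with a heat shock element, read 10.52, 10.56 and 10.07 in controls and 10.18, 9.89 and 10.32 in IR-A tumours, a difference of -0.25 (SE 0.17). DNAJA2 differed by -0.14 (SE 0.12). DNAJB1 (HSP40), the classic inducible partner, read 8.29, 8.38 and 8.10 in controls and 8.20, 8.13 and 8.33 in IR-A tumours, which overlapped almost fully (difference -0.04, SE 0.11).

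Both DNAJ genes with an unadjusted p under 0.05 were in the DNAJC series. DNAJC15, a cochaperone of the mitochondrial import motor, read 9.45, 9.42 and 9.13 in controls and 8.91, 8.63 and 8.73 in IR-A tumours. Every IR-A tumour was below every control, by -0.58 (SE 0.13, 95% interval -0.88 to -0.27, adjusted p = 0.16 by limma), and the difference stayed between -0.51 and -0.68 when each tumour was left out. DNAJC7, a tetratricopeptide protein that binds HSP70 and HSP90, read 8.68, 8.65 and 8.49 in controls and 8.28, 8.46 and 8.25 in IR-A tumours, also apart, by -0.28 (SE 0.10, adjusted p = 0.311). Groups lower in IR-A tumours without overlap were also seen for DNAJC17, DNAJC12, DNAJC8, DNAJB8 and DNAJB12, with differences of -0.31 to -0.14 and unadjusted p above 0.05. DNAJB8 is a testis gene and was dim here (3.81 in controls).

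ER-resident DNAJ genes went both ways. DNAJB9 (ERdj4) acts with BiP on IRE1 and is a target of XBP1. It read 6.69, 7.37 and 6.32 in controls and 6.91, 7.25 and 7.57 in IR-A tumours. Control tumour 2 lay among the IR-A values, so the groups overlapped, with a difference of 0.45 (SE 0.29, adjusted p = 0.563 by limma), or 0.21 without control tumour 3. DNAJC3 (p58IPK), which binds unfolded proteins with BiP and restrains eIF2 alpha kinases, read 8.27, 8.11 and 8.10 in controls and 8.11, 7.92 and 8.45 in IR-A tumours. Its means were equal (8.16 in both groups) while the IR-A tumours spread more widely. DNAJC25, an ER gene named after its values were seen, read 6.34, 6.96 and 6.32 in controls and 7.03, 7.01 and 6.87 in IR-A tumours, a difference of 0.43 (SE 0.18). DNAJB5, a cytosolic and nuclear form, read 6.54, 6.92 and 6.34 against 6.98, 6.95 and 6.79, a difference of 0.31 (SE 0.16). In both genes control tumour 2 stood with the IR-A tumours and the other controls below.

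PDIA5 was the single gene of the 76 with a signal more than 2 times as high in IR-A tumours. It encodes an ER disulfide isomerase that is known to act on ATF6. Its signals were 7.45, 7.54 and 7.29 in controls and 8.67, 8.66 and 8.14 in IR-A tumours, 7.43 ± 0.12 against 8.49 ± 0.31 (SD, n = 3 each). All IR-A tumours lay above all controls, with IR-A tumour 3 nearest to them, and the difference of 1.06 (SE 0.17, 95% interval 0.66 to 1.47) is a factor of 2.09. Its adjusted p was 0.131 (limma), and the difference stayed between 0.97 and 1.24 when each tumour was left out, with adjusted p from 0.0641 to 0.477.

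The other disulfide isomerases lay closer to 0. P4HB, the most widely studied isomerase and a subunit of prolyl hydroxylase, read 11.91, 11.68 and 11.85 in controls and 12.16, 12.00 and 11.89 in IR-A tumours. IR-A tumour 3 lay just below control tumour 1, and the difference was 0.20 (SE 0.11, adjusted p = 0.497 by limma). PDIA4 read 9.72, 9.37 and 9.43 in controls and 9.30, 9.36 and 9.80 in IR-A tumours, a difference of -0.02 (SE 0.17). PDIA6, with an ER stress element, differed by -0.14 (SE 0.13), and PDIA2, a dim pancreatic form, by -0.11 (SE 0.23).

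The lectin chaperones, which retain glycoproteins such as the insulin receptor precursor until they fold, gave unlike values. CANX (calnexin) read 11.13, 10.99 and 10.98 in controls and 10.75, 10.75 and 10.75 in IR-A tumours. The 3 IR-A values spanned 0.01, and all lay below all controls, by -0.28 (SE 0.09, 95% interval -0.49 to -0.07, adjusted p = 0.241 by limma). CALR (calreticulin), its soluble relative, read 12.02, 11.81 and 11.83 in controls and 11.84, 11.78 and 12.05 in IR-A tumours, with equal means (11.89) and a difference of 0.01 (SE 0.11, 95% interval -0.27 to 0.28). The difference between the pair was not tested. Both genes carry the ER stress element.

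**Figure D2:**
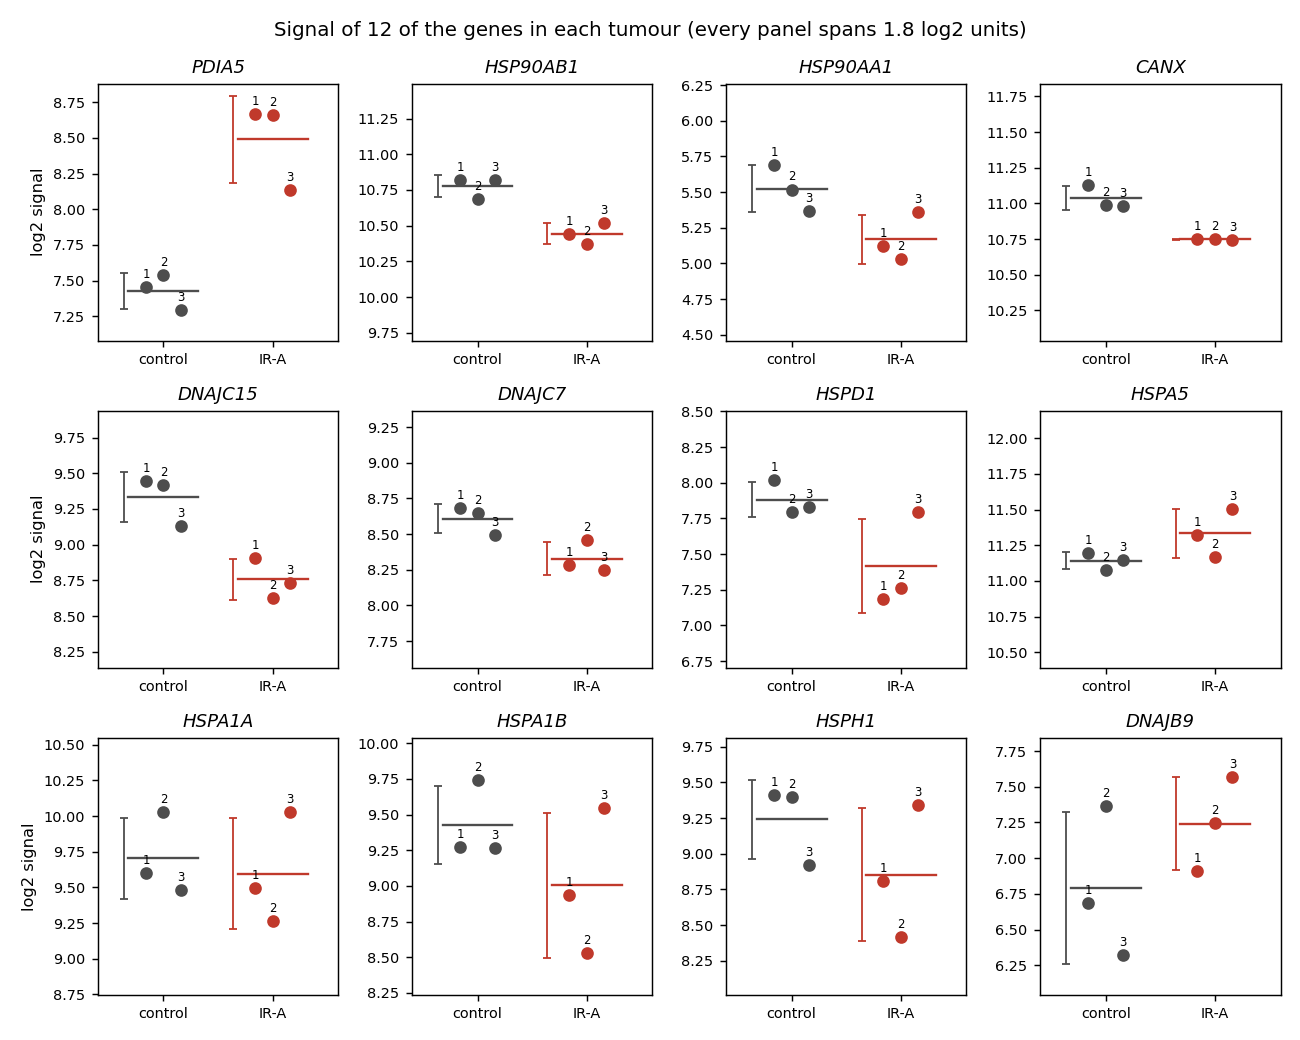
Log2 signal of 12 of the genes in each tumour, control in grey and IR-A in red, with the tumour number above each point; horizontal lines are group means, vertical bars 1 SD on either side (n = 3), and each panel spans 1.8 log2 units. PDIA5, HSP90AB1, CANX, DNAJC15 and DNAJC7 have groups that do not overlap, as has HSP90AA1 by the last decimal. HSPA1A, HSPA1B and HSPH1 spread more within the IR-A tumours (ranges 0.76, 1.01 and 0.93) than their means differ, as do HSPD1, HSPA5 and DNAJB9.

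By place in the cell, 34 of 48 cytosolic, nuclear or other genes lay below 0 (median -0.13), against 8 of 20 ER genes (median 0.03) and 5 of 8 mitochondrial genes (median -0.06). These are counts that describe the lists, and 56% of all probe sets lay below 0. Unadjusted p under 0.05 was found in 3 of 48 cytosolic genes, all lower (HSP90AA1, HSP90AB1 and DNAJC7). It was found in 2 of 20 ER genes, PDIA5 higher and CANX lower, and in 2 of 8 mitochondrial genes, HSPD1 and DNAJC15, both lower. The share of all probe sets was 14.1%, with 7.03% lower. The genes with a heat shock element had 6 of 7 differences below 0 and a median of -0.33. The 98 array genes with such an element, these 7 included, had 52 below 0 and a median of -0.02. The 5 with an ER stress element had 3 below 0 and a median of -0.10. The 19 array genes with it, these 5 included, had 10 below 0 and a median of -0.01.

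The tumours of a group were not alike in these genes. IR-A tumour 2 was the lowest of the 6 tumours in 27 of the 76 genes (35.5%), against 16.6% of all probe sets. Among genes above the median probe set it was lowest in 37.3%, against 21.8% of all probe sets above that median. IR-A tumour 3 was the highest in 18 genes (23.7%, against 10.8% of all), and in 9 of the 20 ER genes (45%). Control tumour 1 was the highest in 22 genes (28.9%, against 22.6%). HSPA1B, HSPH1, HSPA8, DNAJA1 and HSPA14 were all lowest in IR-A tumour 2, and HSPA5, DNAJB9, DNAJC3, PDIA4 and CALR all highest in IR-A tumour 3. These 10 were picked from the values to show the pattern. The median difference over the 76 genes was -0.14 without IR-A tumour 3 and -0.0092 without IR-A tumour 2.

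**Figure D3:**
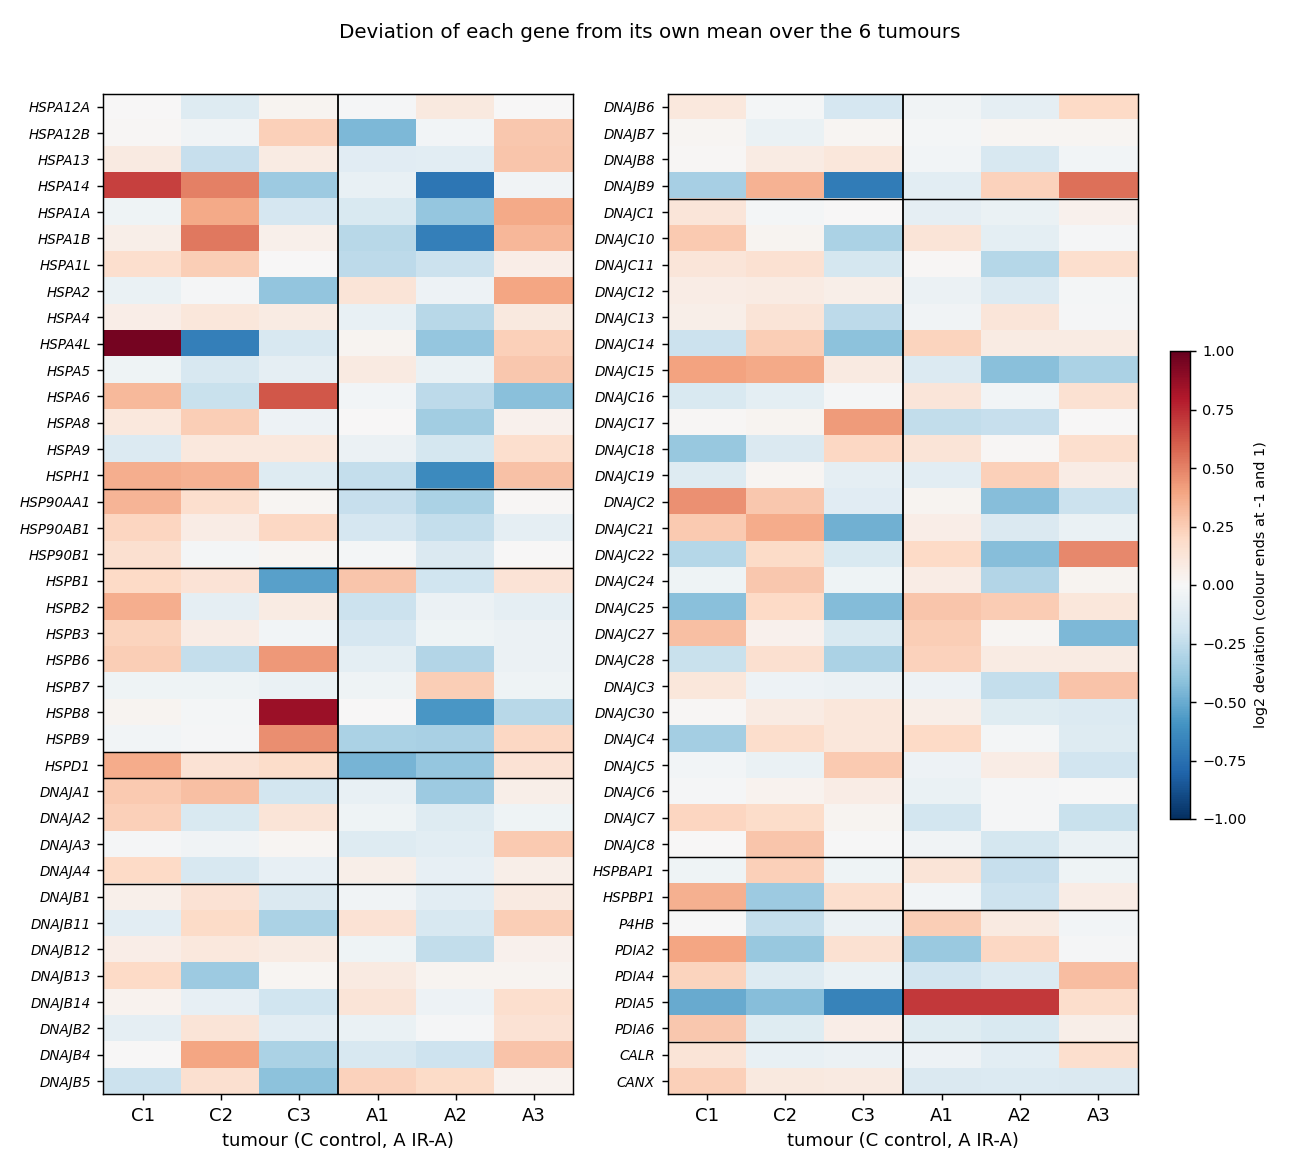
Log2 deviation of each of the 76 genes from its own mean over the 6 tumours (red above, blue below, colour scale from -1 to 1), with control tumours C1 to C3 left and IR-A tumours A1 to A3 right of the vertical line and families between horizontal lines. Column A2 is the lowest in 27 rows, column A3 the highest in 18, and PDIA5 has the clearest change of colour at the line between the groups.

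Without control tumour 2, 13 of the 76 genes had an unadjusted p under 0.05, 6 higher and 7 lower, against 21.1% of all probe sets. No gene of the families passed the adjusted threshold, which 308 probe sets (1.25%) then did, and the lowest adjusted p values were 0.0535 (DNAJC25, difference 0.64) and 0.0641 (PDIA5, 1.12) by limma. The other genes that were then higher were DNAJB9 (0.74), DNAJB5 (0.46), DNAJC14 (0.44) and DNAJC28 (0.40). In all 5 DNAJ genes control tumour 2 was the highest control. The number of genes below 0 hardly moved, at 48 in place of 47.

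Other folding genes and their regulators, from lists outside the families, lay mostly below 0. The lists hold heat shock factors, an alpha crystallin, cochaperones, the TRiC and prefoldin complexes and other ER folding enzymes. Of 63 measured, 51 (81%) lay below 0, with a median of -0.21, and 23 had an unadjusted p under 0.05 and were lower, 4 higher (42.9% in all, against 14.1% of all probe sets and 23.6% of those above the median signal). None passed the adjusted threshold. HSF1, the main heat shock transcription factor, read 7.60, 7.54 and 7.64 in controls and 7.00, 7.03 and 6.99 in IR-A tumours. The groups were far apart for their spread, with a difference of -0.59 (SE 0.08, adjusted p = 0.126 by limma). Without control tumour 2 it was -0.61 and just passed, with an adjusted p of 0.0499 by limma. HSF1 passed in no other setting. HSF4 differed by -0.13 (SE 0.12), HSF2 was not analysed here, and CRYAB, an alpha crystallin of the small heat shock family, differed by -0.21 (SE 0.17).

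The cochaperones of HSP70 and HSP90 lay below 0 in all 21 measured of 22, HSPBP1 included, with a median of -0.24. Below 0 were 18 of the 21 without control tumour 2, and also with array weights. The count was 19 without control tumour 3 and without IR-A tumour 2. FKBP4, a prolyl isomerase on steroid receptor complexes of HSP90, read 9.15, 8.12 and 8.72 in controls and 6.64, 6.96 and 7.54 in IR-A tumours. All IR-A tumours lay below all controls, and the difference was -1.62 (SE 0.32, adjusted p = 0.147 by limma), the lowest of the 63 genes. Its relative FKBP5 differed by -0.73 (SE 0.18), STIP1 (HOP), which bridges HSP70 and HSP90, by -0.62 (SE 0.20), PTGES3 (p23), which holds closed HSP90, by -0.50 (SE 0.10), and BAG3 by -0.44 (SE 0.15). TRAP1, the mitochondrial HSP90, differed by -0.62 (SE 0.23) with overlapping groups. STUB1 (CHIP), a ubiquitin ligase that binds HSP70, differed by -0.0044 (SE 0.10). An unadjusted p under 0.05 was found for 10 of the 21, for 6 without control tumour 1 and for 4 without either IR-A tumour 1 or IR-A tumour 2. The share of all probe sets was 14.1%, and 9%, 8.72% and 10.8% in those fits.

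The TRiC chaperonin, the cytosolic ring that folds actin and tubulin, lay below 0 in 8 of 8 subunits, from -0.61 (CCT3, SE 0.16) to -0.29 (CCT8, SE 0.14), with a median of -0.42. An unadjusted p under 0.05 was found for 6 of them, for 3 without either IR-A tumour 1 or IR-A tumour 2 and for 8 without IR-A tumour 3. The share of all probe sets was 14.1% with every tumour, and 8.72%, 10.8% and 12% without these tumours. Prefoldin, which hands actin and tubulin to TRiC, had 5 of 6 subunits below 0. PFDN4 read 8.39, 7.89 and 8.47 in controls and 6.76, 7.46 and 6.65 in IR-A tumours, a difference of -1.29 (SE 0.25, adjusted p = 0.147 by limma), and PFDN1 was the subunit above 0, at 0.30 (SE 0.17).

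Other folding enzymes of the ER went both ways, 11 above and 15 below 0 of 26 measured, with a median of -0.05. ERP27, a redox-inactive isomerase relative best known from pancreas, read 4.37, 7.77 and 5.20 in controls and 9.79, 9.03 and 8.87 in IR-A tumours. The groups did not overlap, but control tumour 2 lay far above the other controls, and the difference was 3.45 (SE 0.83, adjusted p = 0.173 by limma), or 4.45 (adjusted p = 0.0261) without that tumour. ERP27 passed in no other setting. QSOX1, a sulfhydryl oxidase, differed by 0.76 (SE 0.23), CLGN (calmegin), a relative of calnexin, by 0.60 (SE 0.18) and TMX4, a membrane thioredoxin, by 0.55 (SE 0.16). TMX1 (-0.51, SE 0.16), TMX2 (-0.49, SE 0.15) and the ER prolyl isomerase FKBP2 (-0.49, SE 0.11) lay the other way, and none of these 7 passed the threshold. The part of cells with the fibroblast, macrophage or endothelial markers in these values was not tested.

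**Figure D4:**
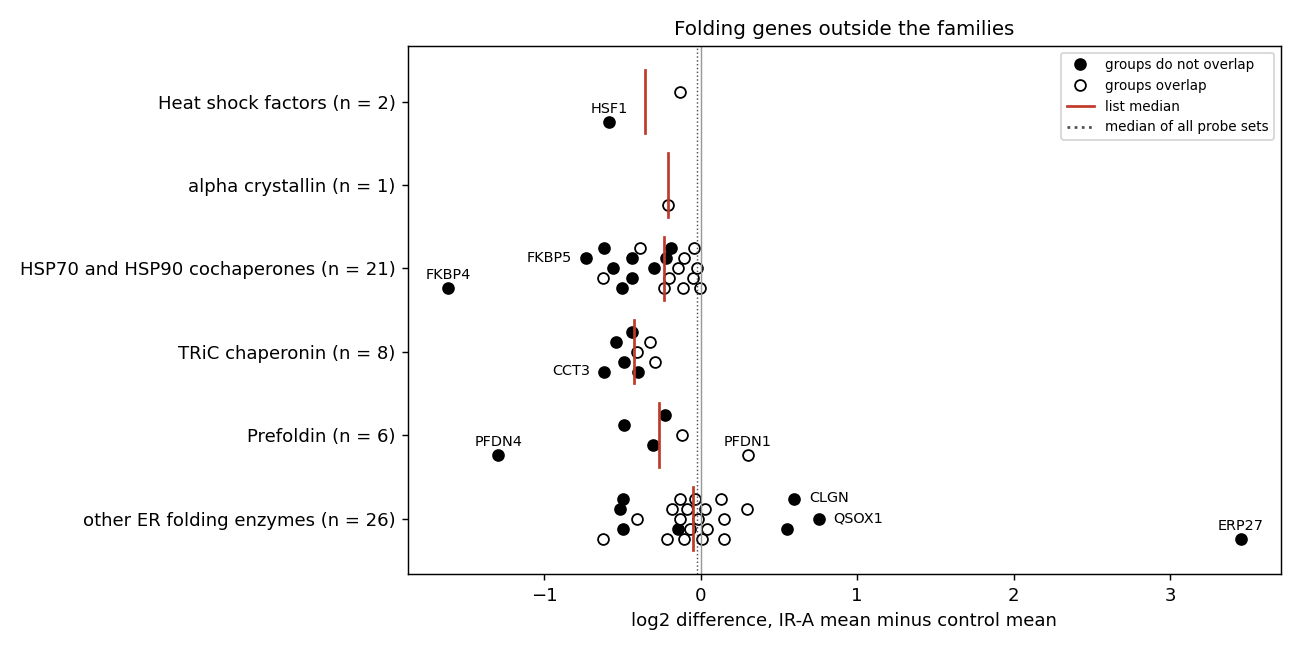
Log2 difference (IR-A mean minus control mean, 3 tumours each) of each folding gene outside the families, by list. HSPBP1, among the cochaperones, is also 1 of the 76. Filled points have groups that do not overlap, red lines are list medians and the dotted line is the median of all probe sets. The 21 HSP70 and HSP90 cochaperones and the 8 TRiC subunits all lie below 0, and ERP27 lies far to the right at 3.45.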

How the data were processed

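The deposited table holds log2 signals of 24726 probe sets on 6 arrays, made by the authors with RMA (background correction, normalization between arrays and summary of probes) and Partek, per the submitters' processing notes. Per the labels, 500 ng of total RNA per tumour was labelled. Array model, probe set definition and genome build were not given in the sources used here. RMA shrinks differences between low signals, and the number of arrays limits the precision. GEO's platform annotation gave 23934 probe sets 1 symbol. All 76 genes matched RefSeq.

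Differences, SE and 95% intervals came from limma 3.58.1 (R 4.3.3; lmFit, then eBayes without a trend or a filter), with p-values adjusted over all probe sets. Genes always named were the best-known chaperones, to which the rule added, per family, up to 6 with an unadjusted p under 0.05 and groups apart (where none, the 2 of smallest p) and the 3 of widest control range overall. Other genes were named after their values were seen. The genes, families and lists were chosen with earlier results of these data known. On simulated data with independent noise for each tumour the script recovered, on average, the differences put in. The changes put in were at least a factor of 2, larger than the differences of most of these genes. The labels do not say whether replicate numbers pair the tumours. Same-number correlations of deviations were -0.294, -0.358 and 0.0203, and the highest of any pair was 0.504 (control tumour 2 with IR-A tumour 1). With 3 tumours per group these values cannot exclude a pairing. Alternatives were quantile normalization, median centring, filters on dim probe sets, an intensity trend, robust moderation, array weights, the replicate block and leaving out each tumour. Counts over the lists of other folding genes under these settings were added after the data were seen. Promoter windows were searched with Python 3.11.15, and figures drawn with matplotlib 3.10.9.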

Additional observations from a re-analysis of the deposited data

How the results depend on the processing

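No chaperone or isomerase gene passed the threshold under any of the 14 settings. Of the 34 genes named by rule, 24 kept the sign of their difference in every setting that kept the gene. The filters on dim probe sets, the intensity trend, robust moderation and the replicate block leave the difference itself unchanged. A sign could therefore turn only in the other settings. The count with an unadjusted p under 0.05 was 7, and became 11 after quantile normalization, 4 without the dimmest 50% of probe sets, 5 with the replicate block, and 4 to 13 when each tumour was left out, highest without control tumour 2 (13) and control tumour 3 (12). The share of all probe sets was 14.1%, and 14.9%, 20.7%, 10.9% and 8.72% to 21.1% in the same order. The median difference ranged from -0.14 to -0.0092 when each tumour was left out. The small heat shock median was 0.14 without the dimmest 50%, where HSPB1 alone remained, and -0.34 to -0.12 with a tumour left out. Signs turned after quantile normalization for HSP90B1 (0.0052), HSPA9 (0.0481) and PDIA4 (0.0011), after median centring for DNAJC3 (0.0129), and with array weights for DNAJB1 (2e-04), DNAJC3 (0.0189), HSPA1A (0.0214) and HSPA9 (0.0069). The cause was not tested. With each tumour left out in turn, the range was -0.15 to 0.12 for DNAJC3, -0.44 to 0.38 for HSPA4L, -0.31 to 0.0453 for HSPBP1, -0.17 to 0.0896 for PDIA4, -0.0756 to 0.07 for CALR, -0.11 to 0.0268 for DNAJB1, -0.32 to 0.0603 for HSPA1A, -0.10 to 0.27 for HSPB1 and -0.14 to 0.0291 for HSPA9. INSR passed without control tumour 2, with either filter on dim probe sets and with array weights. Of the genes, 17 lay below the median probe set, where small differences are compressed.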
